A study of Mus musculus with 2 samples.

Results

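The regions described here are 481 strong Zfp322a ChIP-seq sites at the promoters of protein-coding genes in E14 mouse embryonic stem (ES) cells. They were chosen by their heights in 2 libraries, one precipitated with anti-ZNF322 antibody and one with rabbit IgG. Only reads with a mapping quality score of at least 25, which marks a read that fits 1 place of the genome well, were counted, and each was extended to 300 bp. A stretch of the genome where at least 9 extended Zfp322a reads overlapped was joined to its neighbours over gaps of up to 300 bp, which gave 7404 joined stretches. The highest pileup of a stretch is here called its height. A strong site needed a Zfp322a height of 15 reads or more and a fold over its IgG height of 3 or more, where IgG at 0 counted as 1. This left 613 strong sites, and 481 of them reached into a TSS window, which spans -1000 to +100 bp of the transcription start site (TSS) of a coding transcript. TSSs and gene parts were taken from the GENCODE annotation of mm9, the build to which the reads had been mapped.

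The study examined Zfp322a, a zinc finger protein, for its part in ES cell identity, and the libraries addressed where in the genome it is found. E14 cells, listed in the labels with the background strain C57BL/6, were grown with LIF, and neither library came from treated or genetically altered cells as far as the labels say. Each antibody had 1 library, so no height or fold given here has a replicate check. The Zfp322a library held 5187475 mapped reads, 4151151 of them with a score of at least 25, and the IgG library 4843481, of which 3877802 had that score, a ratio of 1.07 that was not used to scale heights.

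A protein with C2H2 zinc fingers binds DNA through fingers that each contact a few bases, so a binding site usually holds a preferred short word. In ChIP-seq, fragments crosslinked to a protein pile up around the place where it sat, and the reads of the 2 strands flank that place. Mammalian promoters often lie in CpG islands, stretches rich in G, C and the dinucleotide CpG, and many housekeeping genes start there. IgG libraries also gather reads at such open, GC-rich promoters, which is why each site was set against IgG.

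The sequence of the sites was not used to choose them. The word AGGCC and its complement GGCCT stood out when all 8-base words were counted, and they are shown here in capitals at 2 of the highest sites, in 120 bases centred on the summit, the middle of the highest pileup. The base order AGGCCT, which reads the same on both strands, is the known core of the sites bound by Zfx, another zinc finger factor of ES cells. Sequences are from the mm9 reference and run 5′ to 3′ on the strand of the nearest gene. The *Pcbp2* window is chr15:102301337-102301456 on the + strand, and the *Zfx* window is chrX:91368258-91368377 on the - strand.
Pcbp2: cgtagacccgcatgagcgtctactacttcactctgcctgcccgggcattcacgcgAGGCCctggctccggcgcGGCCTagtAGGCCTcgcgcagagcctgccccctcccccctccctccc
Zfx: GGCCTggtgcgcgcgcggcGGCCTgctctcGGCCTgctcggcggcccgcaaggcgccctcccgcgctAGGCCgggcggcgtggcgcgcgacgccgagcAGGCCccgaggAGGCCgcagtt
With matches that share bases counted as 1 place, the *Pcbp2* window held 3 places and the *Zfx* window 6. The next highest site with such a window outside annotated untranslated regions, shared by *Ispd* and *D630036H23Rik*, held 0 places in its 120 bases and 2 in 300 bases.

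The word also lay within 100 bp of the summit at *Zfp13* and at the site of *Ispd* and *D630036H23Rik*. Their runs of 30 bases, not printed, held 1 place each. It did so too at the following 4 of the 10 highest sites. These runs of 30 bases are the stretches within 100 bp of the summit that hold the most letters of the word, again in capitals, and they lie at chr1:63160887-63160916 (*Ino80d*), chr11:98543999-98544028 (*Psmd3*), chr9:64189011-64189040 (*Dis3l*) and chr10:112366013-112366042 (*Atxn7l3b*).
Ino80d: AGGCCcggcccacatccccgggctcccgta
Psmd3: AGGCCcctgcttcggtccccggactAGGCC
Dis3l: AGGCCcgaggggcgGGCCTcAGGCCTcggt
Atxn7l3b: AGGCCcgaacggctgggtgaggcgccgaga
*Dis3l* held 3 places in 30 bases, one of them the palindrome AGGCCT. Other promoter words are shown at the highest site that holds each, with the word in capitals. They are the Nrf1 word GCGCATGCG at *Pafah1b1* (chr11:74537932-74537961), where the complement runs on by 1 base, and the palindrome CTCGCGAG at *D1Pas1* (chr1:188791256-188791285).
Pafah1b1: ggcccggcccGCGCATGCGCcgcgggccct
D1Pas1: agggcagagttCTCGCGAGatcttgaggac

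The heights that chose the sites are given as a description. The median Zfp322a height was 18 reads, with quartiles of 16 and 21, a lowest value of 15 and a highest of 408. IgG heights at the same sites had a median of 4 and quartiles of 3 and 5, and the fold of heights had a median of 4.25 and reached 34.3. Most sites were therefore modest: 318 had 15 to 19 reads, 130 had 20 to 29 and 33 had 30 or more. The 116 sites of 15 reads carry a wide counting error. Site lengths were between 249 and 1973 bp, and the median was 493 bp.

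**Figure D1:**
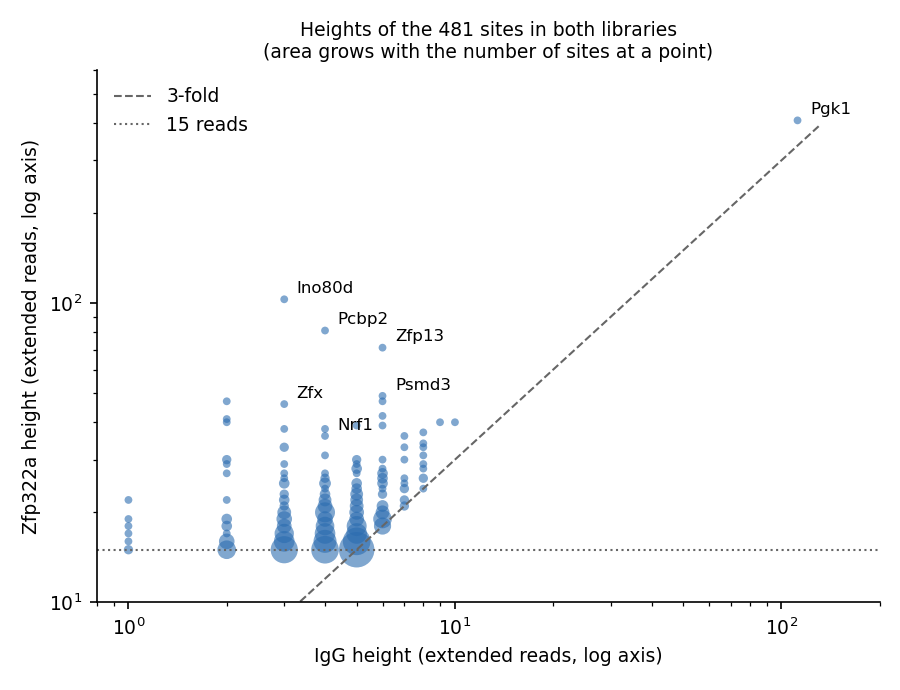
Zfp322a height against IgG height of the 481 sites, both in extended reads on log axes; the area of a point grows with the number of sites at it, the dotted line marks 15 reads and the dashed line 3-fold. Most sites sit near 15 to 21 Zfp322a reads over 3 to 5 IgG reads, *Ino80d*, *Pcbp2* and *Zfp13* stand above them, and *Pgk1* stands apart in both libraries with 408 and 112 reads.

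The 562 genes with a site in a TSS window were 2.51% of the 22359 coding genes; since the rule used the same heights, nothing is read from this share, and it serves as the background for the gene groups given further on. With Zfp322a and IgG swapped in the rule, 2 genes met it (0.00894%). Of the 481 sites, 401 overlapped the window of 1 gene, 78 of 2 genes and 2 of 3 genes. The sites were 11.4% of the 4203 joined stretches at coding promoters.

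The genes at the highest sites have varied roles. The site at *Ino80d*, which encodes a subunit of the INO80 chromatin remodelling complex, had a height of 103 Zfp322a reads and 3 IgG reads and lay at chr1:63160345-63161379. Its summit was 31 bp after the TSS, in the 5′ UTR. *Pcbp2*, an RNA-binding protein gene, had 81 and 4 reads at chr15:102300665-102301663, with the summit in an intron 334 bp after the TSS. Both were far above the upper quartile of the sites and had IgG heights at or below its median. *Zfp13*, a zinc finger gene, had 71 and 6 reads at chr17:23735497-23736407, with the summit in an intron 360 bp after its TSS and at -1729 bp from the nearest TSS of its neighbour *Zscan10*, a transcription factor of ES cells.

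Protein turnover, RNA decay and signalling were also represented among the highest sites. *Psmd3*, a subunit of the 19S regulatory particle of the proteasome, had 49 Zfp322a and 6 IgG reads at chr11:98543679-98544219. *Socs6*, a suppressor of cytokine signalling, had 47 and 2 reads, and *Dis3l*, a catalytic subunit of the cytoplasmic RNA exosome, had 47 and 6. *Zfx*, a zinc finger activator needed for ES cell self-renewal, had 46 and 3 reads at chrX:91367612-91369179, and its summit lay 79 bp before the nearest coding TSS. The IgG heights of these 4 sites were 2 to 6 reads. The sites are listed by Zfp322a height, so nothing is read from their order. Next came the site shared by *Ispd* and *D630036H23Rik* with 42 and 6 reads, *Atxn7l3b* with 41 and 2, and *Pafah1b1*, a regulator of the dynein motor, with 40 and 2. *Prcc* had 40 and 10 reads. Its fold was smaller, 4.0, and its IgG height was the highest of the 25 after that of *Pgk1*.

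The remaining sites among the 25 highest had heights of 33 to 39 reads. *Pkd1*, encoding polycystin-1, had 39 Zfp322a and 6 IgG reads, and *Kdelr1*, a receptor that returns proteins to the endoplasmic reticulum, had 39 and 5. *Rnf7*, a RING subunit of cullin ubiquitin ligases, had 38 and 3 reads, *D1Pas1* 38 and 4, and *Clk3*, a kinase of splicing factors, 37 and 8. *Nrf1*, an activator of nuclear genes for mitochondrial function, had 36 and 4 reads at chr6:29997942-29998618, with the summit in an intron 254 bp after the TSS. *Fbxw4* had 36 and 7, *Cnbp* 34 and 8, *Fam178b* 33 and 7, and *Cnot8*, a deadenylase of the CCR4-NOT complex, 33 and 8. The head-to-head pairs *Eaf2* and *Iqcb1*, and *Cpsf7* and *Sdhaf2*, each shared a site of 33 and 3 reads, which cannot be assigned to either gene of the pair. Of these 25 sites the summit lay in an intron at 10, in a 5′ UTR at 9, upstream of genes at 4 and in a coding exon at 2.

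The highest site of all, at *Pgk1*, a glycolytic enzyme gene on chromosome X, differed in shape from the 3 other sites drawn here. Its heights were 408 Zfp322a and 112 IgG reads, so it had both the highest Zfp322a and the highest IgG pileup of the sites, and its fold was 3.64. The 729 Zfp322a reads within 320 bp of its summit had 5′ ends from -252 to 240 bp, and the 179 IgG reads had them from -240 to 237 bp. Only 3 more Zfp322a reads and 1 more IgG read lay within 800 bp, so the signal ended abruptly on both sides in both libraries. No read of either library shared its 5′ position and strand with another, so a height of 600 is the most the deposited reads allow, and in 4 bins of 40 bp, counted on each strand apart, every position already held a Zfp322a read. At *Ino80d*, by contrast, the fullest bin held 22 reads and the reads of the 2 strands lay 116 bp apart. The cause of the *Pgk1* shape was not tested. Without this site no count, share, median or mean followed across settings changed beyond its counting interval.

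**Figure D2:**
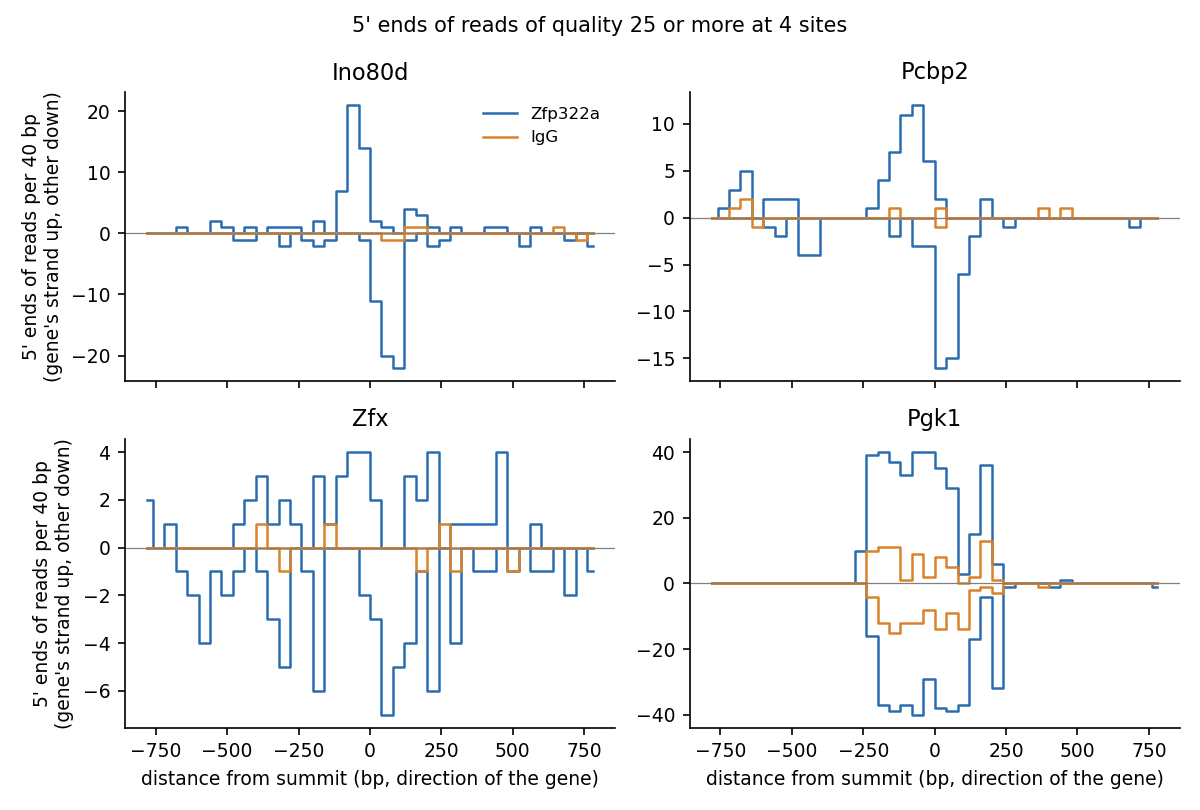
Number of 5′ ends of reads with a score of at least 25 per 40 bp around the summit, reads on the gene's strand drawn upward and on the other strand downward, for Zfp322a and IgG at 4 sites; the vertical scales differ. *Ino80d* and *Pcbp2* show offset peaks of the 2 strands and almost no IgG, *Zfx* shows a broad site, and *Pgk1* shows a flat block with sharp ends in both libraries.

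The thresholds cut through a continuous range. The lowest members by height and by fold, at *Sf3b1*, the pair *Nsl1* and *Tatdn3*, the pair *Lats1* and *Pcmt1*, *Pdss2* and *Dvl2*, each had 15 Zfp322a and 5 IgG reads, exactly 3-fold. In all, 116 members had exactly 15 reads and 60 exactly 3-fold. Just outside by height were stretches of 14 and 1 reads at *Slc25a29*, *2310016M24Rik*, *Gnas*, *Htt* and *Wbscr28*, among 94 promoter stretches of 14 reads at 3-fold or more. Just outside by fold were stretches of 20 and 7 reads at *Pdcd6*, *Napa* and *Map3k10* and of 17 and 6 reads at *Fam36a* and *Lace1*, folds of 2.86 and 2.83, among 98 stretches of at least 15 reads at 2.5 to 3-fold.

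Of the 8 genes named in the study for its ChIP-seq experiment, 6 had a member site. Besides *Ino80d*, *Zfx* and *Nrf1*, these were *Polr3e* (20 Zfp322a and 5 IgG reads) and *Polr2j* (17 and 5), which encode subunits of RNA polymerases III and II, and *Smarce1* (18 and 3), a subunit of SWI/SNF remodelling complexes. The *Smarce1* summit lay 619 bp after the TSS, in an intron. Inside the TSS windows of *Smarce1* the pileup reached only 10 Zfp322a and 3 IgG reads. *Polr2a*, the largest subunit of RNA polymerase II, had a promoter stretch of 12 and 2 reads, under the height asked for, and the TSS windows of *Zscan10* reached 8 Zfp322a and 5 IgG reads. Of the 20 genes for which ChIP-seq primers were listed, 8 had a member site, among them *Nrf1*, *Zfx*, *Pafah1b1*, *Myl4* (29 and 2, shared with *Cdc27*), *Axin1* (29 and 3), *Tardbp* (25 and 6) and *Tcea2* (16 and 1). The other 12 stayed under 15 reads: the highest stretch was that of *Anapc4*, with 13 and 2 reads, and the windows of *Arid1b* and *Ehmt2* reached 8 reads each. The study took loci of various peak heights for its qPCR, and its named genes come from these same libraries. These counts are therefore no independent check.

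Of 103 measured genes of splicing and hnRNP factors, 18 had a site (17.5%, against 2.51% of all coding genes), led by *Hnrnph1* with 27 Zfp322a and 6 IgG reads and by *Srsf11*, a splicing factor, with 27 and 6 at a site shared with *Lrrc40*. Others were *Hnrnpm*, *Hnrnpk*, *Hnrnpf*, *Prpf8*, *Sf3a1* and *Sf3b1*. Of 80 cytosolic ribosomal protein genes 10 had a site (12.5%), with *Rpl3* the highest at 22 and 5 reads. The proteasome had 5 of 39 (12.8%): *Psmd3*, *Psmd14* and the core subunits *Psma1*, *Psma2* and *Psma3*. The lists were chosen with results of these data known and no test was made of them, so the shares are counts only.

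The INO80 complex had 2 of 15 genes with a site (13.3%), *Ino80d* and *Actr8*, an actin-related subunit with 19 Zfp322a and 2 IgG reads. RNA polymerase subunits had 2 of 27, histone modifying enzymes 4 of 70 (*Nsd1*, *Kdm4b*, *Kdm3b* and *Mll5*), SWI/SNF complexes 1 of 25, CHD and NuRD 1 of 20 (*Gatad2a*, 20 and 6), TFIID and general factors 2 of 41 (*Gtf2h1* and *Brf1*), elongation factors 1 of 28 (*Tcea2*) and Mediator 0 of 30. Each of these rests on a few genes. Numbered Zfp genes had 13 of 361 (3.6%) and pluripotency factors 1 of 31, *Zfx*.

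Oxidative phosphorylation had 7 of 91 (7.69%), led by *Atp5g2*, a subunit of ATP synthase, with 31 Zfp322a and 8 IgG reads. Ubiquitin conjugation and removal had 8 of 93 (*Usp47* highest, 23 and 4), tRNA synthetases 3 of 35 (*Vars*, 17 and 5, shared with *D17H6S56E-5*), MAPK signalling 5 of 75, DNA repair 4 of 65, nuclear pore 2 of 20 (*Nup214*, 23 and 6), translation factors 4 of 68 (*Eif2b4*, 28 and 5), mitochondrial ribosomal proteins 3 of 76 (*Mrpl18*, 18 and 5, shared with *Tcp1*) and cell cycle and licensing 3 of 80 (*Cdc27*, 29 and 2). Rab and Vps trafficking genes had 1 of 86 (*Rab22a*, 20 and 5). None of 39 Hox genes and none of 1113 olfactory receptors had a site.

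The sites were centred a little after the TSS. The distance from the nearest coding TSS to the summit had a median of +46 bp and quartiles of -37 and +161 bp, and 47.4% of the summits (95% exact interval 42.9 to 52.0%; all intervals here cover counting error only) lay within 100 bp of a TSS. A further 37.2% (32.9 to 41.7%) lay more than 100 bp after it and 15.4% (12.3 to 18.9%) more than 100 bp before it. By annotation, 181 summits were in a 5′ UTR, 126 upstream of genes, 112 in an intron of a coding transcript, 61 in a coding exon and 1 in a 3′ UTR.

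A stretch had to reach into the TSS window to be counted, so a summit more than 100 bp after the TSS needed a stretch that extended back to it, which long stretches do more readily, and the values that follow are a description. In promoter sites of 9 to 14 reads at 3-fold or more, of which there were 1573, the median distance was -12 bp and 18.8% of summits (16.9 to 20.8%) lay more than 100 bp after the TSS. In 446 promoter stretches of at least 9 IgG reads where the Zfp322a height was under 1.5 times the IgG height, here called IgG promoter stretches, the median was -10.5 bp and the share 14.8% (11.6 to 18.4%). Neither interval overlaps that of the sites. The 258 promoter stretches of at least 15 reads at 1.5 to 3-fold had a median of 28 bp and a share of 28.3% (22.9 to 34.2%), which overlaps it, and the 24 under 1.5-fold had 50% (29.1 to 70.9%). With rising height the median moved from -33 bp at 9 to 10 reads, through 3.5 bp at 11 to 14, 33.5 bp at 15 to 19 and 54.5 bp at 20 to 29, to 144 bp at 30 or more. Of the 33 sites of 30 reads or more, 18 had their summit more than 100 bp after the TSS, as at *Pcbp2*, *Zfp13*, *Nrf1* and *Pafah1b1* (171 bp).

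**Figure D3:**
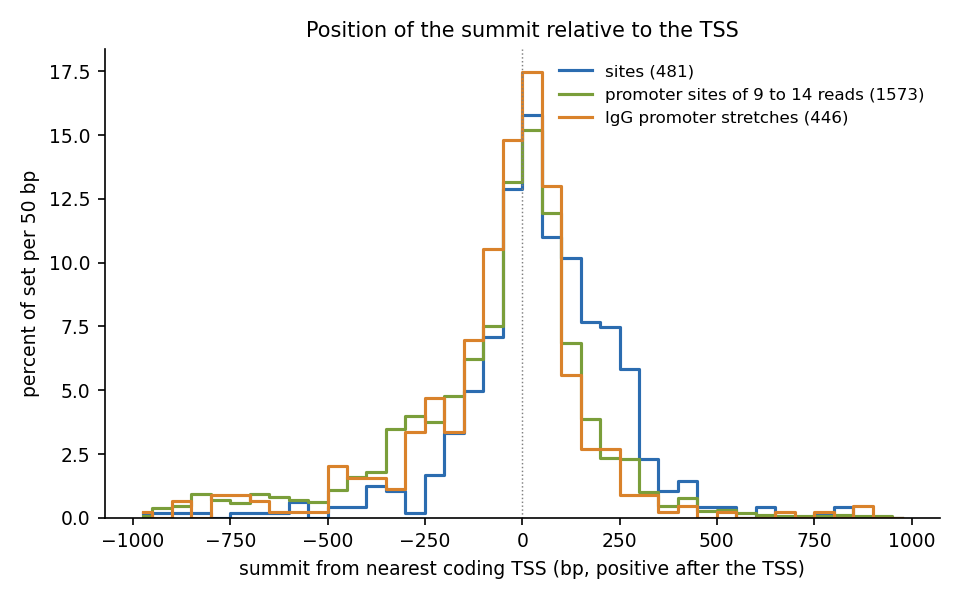
Percent of each set per 50 bp of distance from the nearest coding TSS to the summit, positive after the TSS, for the 481 sites, 1573 promoter sites of 9 to 14 reads and 446 IgG promoter stretches. The 3 curves have their tops at 15.8, 15.2 and 17.5% in the bin from 0 to 50 bp after the TSS, and from 200 to 250 bp after it the sites still have 7.48% against 2.35 and 2.69%.

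Reads of the 2 strands were offset at nearly all sites. Within 300 bp of the summit, the median 5′ end of reverse reads lay after that of forward reads at 471 of the 481 sites, by a median of 134.5 bp with quartiles of 99.5 and 192 bp. It was 116 bp at *Ino80d*, 124 bp at *Pcbp2* and 104.5 bp at *Zfx*, and 38.5 bp at *Pgk1*. Reads were extended along their strand to find the summit, which by itself favours such an offset. The offset is therefore a description of the sites, with no other set beside it. In the same windows the Zfp322a library had 13426 reads and the IgG library 2732. Of the 481 sites, 283 (58.8%) overlapped 1 of the 754 distinct regions deposited by the authors. So did 17 of the 25 highest, among them *Ino80d*, *Pcbp2*, *Zfp13* and *Zfx* but not *Pgk1* or *Psmd3*. The study reports far more putative binding sites than these regions. The share is therefore no measure of overlap with its full list, and a site outside the regions may still be on that list.

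Sites at head-to-head gene pairs, whose coding TSSs point apart with at most 1000 bp between them, were 70 of 481, or 14.6% (11.5 to 18%). They included *Eif2b4* with *Snx17* (28 Zfp322a and 5 IgG reads) and *Cct6a*, a chaperonin subunit gene, with *Psph* (28 and 6). The share was 9.41% (8.01 to 11%) in promoter sites of 9 to 14 reads, 12.6% (9.63 to 16.0%) in IgG promoter stretches and 20.2% (15.4 to 25.6%) in the promoter stretches of at least 15 reads at 1.5 to 3-fold. The interval of the sites overlapped those of the last 2 sets. Of all coding genes, 9.57% had such a partner, a share of genes and not of sites.

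The sites were GC-rich and CpG-rich, more so than coding promoters at large. In 300 bp centred on the summit the median GC content was 67.0% and the median ratio of observed to expected CpG 0.862. In the same windows of all 45961 coding TSSs, centred 46 bp after the TSS, the medians were 59.3% and 0.603. Promoter sites of 9 to 14 reads had 64.0% and 0.781, IgG promoter stretches 64.7% and 0.815, and the promoter stretches at 1.5 to 3-fold 65.7% and 0.858. The 24 promoter stretches of at least 15 reads under 1.5-fold had 61.0% and 0.862. Strong sites away from coding TSS windows, 132 in number, had 61.2% and a CpG ratio of 0.467, the lowest ratio of these sets.

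AGGCC and words that hold it led the 8-base words of the sites. Ranked by the difference in share from coding TSSs without a site, 9 of the 10 leading 8-base words held GGCC and 5 held AGGCC or its complement. AGGCCGCG came first, in 19.8% of sites against 2.79% of those TSSs, followed by CAGGCCGC in 19.5% against 2.94%; CAGGCCTC, which holds the palindrome, was in 13.7% against 2.44%. In promoter sites of 9 to 14 reads the same words were in 5.53%, 5.66% and 5.59%. Promoter stretches at 1.5 to 3-fold held them in 8.53%, 10.9% and 5.43%. Strong sites away from coding TSS windows held them in 6.06%, 5.30% and 12.9%. The 8-base word outside this family, GCCGCCGC, was in 23.5% of sites and 12.6% of the TSSs without one.

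AGGCC on either strand was present in 90.4% of the sites (87.5 to 92.9%), and 45.1% (40.6 to 49.7%) had 3 or more places in 300 bp. The word is common: the same shares were 56.0% and 8.15% at all coding TSSs, 74.8% and 19.9% in promoter sites of 9 to 14 reads and 62.6% and 8.74% in IgG promoter stretches. The mean was 2.57 places, against 0.91 at all coding TSSs, 1.47 in promoter sites of 9 to 14 reads, 1.78 in stretches at 1.5 to 3-fold and 1.01 in IgG promoter stretches. To set this beside base composition, the other 29 orders of the same 5 letters were counted in the same windows, taking an order and its complement as 1. They averaged 1.12 places per window in the sites and 0.998 in the IgG promoter stretches, so in the latter AGGCC was about as frequent as its rearrangements. Between the sites and all coding TSSs the mean of AGGCC rose 2.82-fold, and that of the other orders 1.14 to 1.96-fold with a median of 1.59. Strong sites away from coding TSSs had 2.71 places of AGGCC and 0.873 of the other orders on average. Single orders came nearer to AGGCC or passed it: CAGGC, which is also part of CAGGCC, had 2.19 places in the sites and 2.85 in the strong sites away from coding TSSs, with 1.25 at all coding TSSs. AGGCC holds no CpG while many of the other orders do, so their mean is low where CpGs are few. AGGCC was picked for leading at the sites, so its lead there over the other orders is no independent support.

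The letter after AGGCC varied. At the sites, AGGCCT was in 34.1% of windows (29.9 to 38.5%), AGGCCG in 56.1%, AGGCCC in 53.4% and AGGCCA in 31.2%. At all coding TSSs the shares were 10.3%, 20.3%, 24.9% and 21.3%, so the ratio was greatest for T and least for A. Before the word, CAGGCC was in 66.7% of sites against 28.0% of coding TSSs, GAGGCC in 57.8% against 28.6%, and TAGGCC was in 29.3% against 8.33%.

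The word was gathered at the summit. It was picked for leading at these same sites, so its values there are a description. In the 100 bp around the summit the sites had 1.04 places per window, which fell to 0.243 in the bins 600 bp before and 0.283 in those 600 bp after. All coding TSSs had 0.299 in the central bin. The other orders of the letters, at the sites, had a mean of 0.4 there. They fell as well, to 0.137 in the bins 600 bp before and 0.169 in those 600 bp after. IgG promoter stretches had 0.316 at their own summits and their highest value, 0.415, in the bin 200 bp after. The nearest place lay a median of 26 bp from the summit in the 435 sites that had one, and the central 100 bp held the word in 63.4% of all sites (58.9 to 67.7%), against 18.1 to 54.9% for the other orders.

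**Figure D4:**
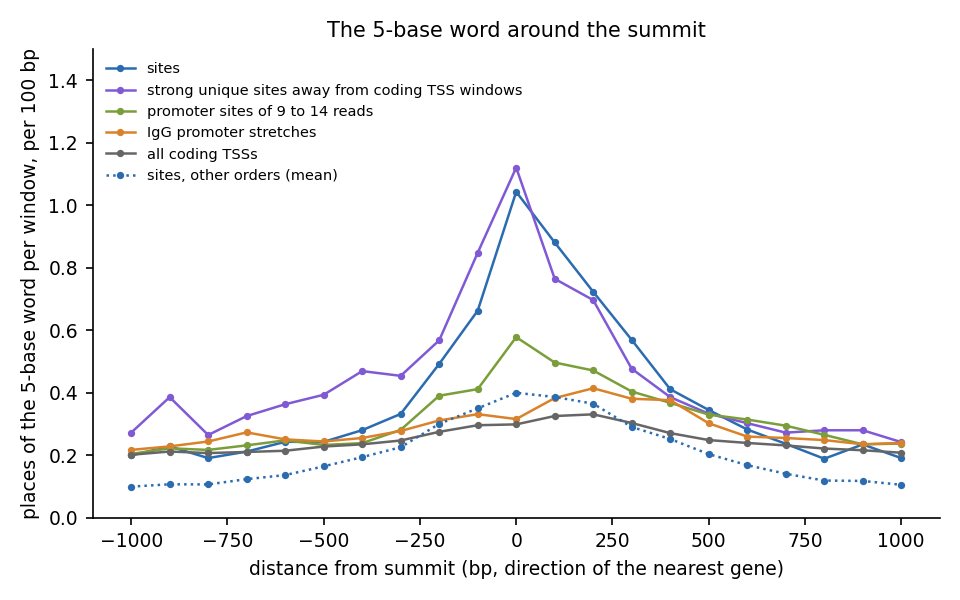
Mean number of places of the 5-base word AGGCC, either strand, per 100 bp of distance from the summit in the direction of the nearest gene; for all coding TSSs the centre is 46 bp after the TSS. The sites and the strong sites away from coding TSSs rise to 1.04 and 1.12 places at the summit, promoter sites of 9 to 14 reads to 0.579, and IgG promoter stretches have 0.316 there and their highest value, 0.415, at 200 bp.

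AGGCC also rose with height and fold among promoter stretches. Since the word was picked for leading in sites selected on height and fold, this is a description and no independent support. Among those at 3-fold or more, the mean number of places rose from 1.31 (SD 1.18 over 913 windows) at 9 to 10 reads to 1.68, 2.16, 3.30 and 3.55 (SD 1.97 over 33 windows) at 11 to 14, 15 to 19, 20 to 29 and 30 or more, while the other orders went only from 0.914 to 1.21. The spread between windows was wide, so neighbouring classes overlap. AGGCCT was in 17.4% (15 to 20%) of the lowest class and in 60.6% (42.1 to 77.1%) of the highest. GC content rose alongside, from a median of 63.0% to 69.3%. Among promoter stretches of at least 15 reads, the mean went from 1.04 places under 1.5-fold to 3.66 at 9-fold or more, while the other orders were at 0.807 and 1.06.

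**Figure D5:**
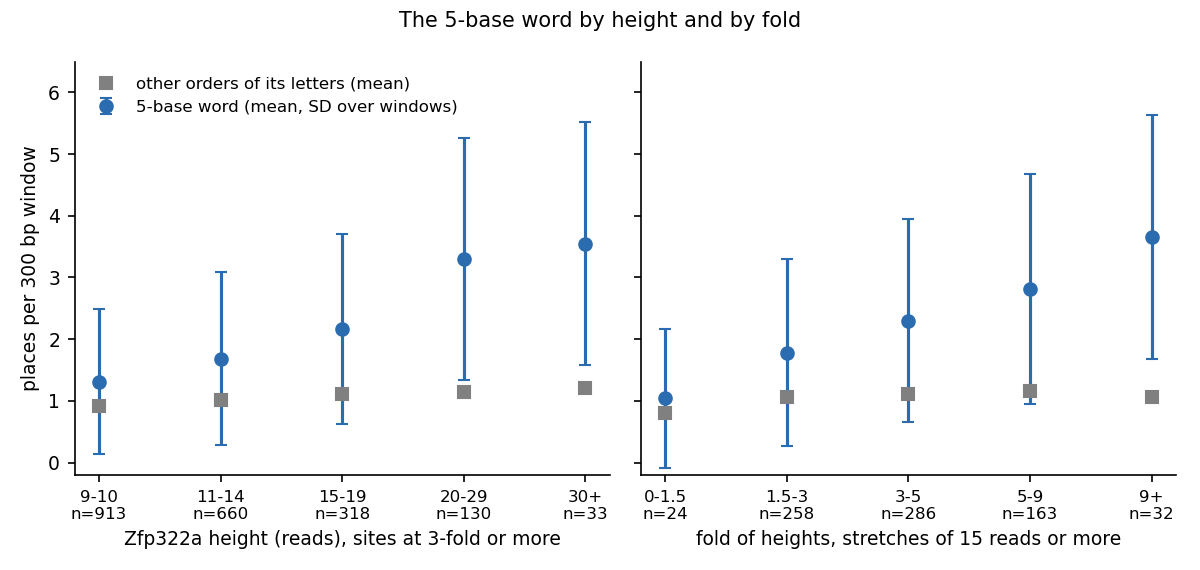
Places of the 5-base word AGGCC per 300 bp window (blue, mean with SD over windows) and of the other orders of its letters (grey, mean) by Zfp322a height among promoter stretches at 3-fold or more (left) and by fold among promoter stretches of at least 15 reads (right). The word rises from 1.31 to 3.55 places with height and from 1.04 to 3.66 with fold, while its rearrangements stay between 0.807 and 1.21.

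Named sites show the range. *Npepl1*, an aminopeptidase gene with 25 Zfp322a and 5 IgG reads, held 10 places in 300 bp. *Zfx*, the site shared by *Ccl25* and *Elavl1* (25 and 4 reads) and *Fip1l1*, a polyadenylation factor gene with 20 and 4 reads, held 9 each. *Nrf1* held 7. *Ino80d* and *Pcbp2* held 4 each, and *Zfp13*, the fourth highest site, 1. All 33 sites of 30 reads or more held the word, 20 of them as AGGCCT. The highest of the 46 sites with none were that of *Cct7* and *1700040I03Rik* (24 and 8), *Api5* (21 and 5) and *Aatf* (21 and 6). The 46 sites without the word had a median height of 16 reads, the 218 with 1 or 2 places 17 reads and the 217 with 3 or more 20 reads, and their median IgG heights were 4.5, 4 and 4. As a distribution over sites of 1 library this is a description.

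Along the gene, the word was most frequent after the TSS. Aligned on the TSS nearest to each site, AGGCC was most frequent in the bin 200 bp after the TSS, with 0.927 places per 100 bp, and all coding TSSs had their highest value, 0.34, in the same bin. Sites with the summit more than 100 bp after the TSS had a mean of 3.36 places and a median GC content of 70.0%, those within 100 bp 2.03 and 66.0%, and those more than 100 bp before it 2.30 and 64.2%. The share with AGGCCT was 35.8%, 33.3% and 32.4%, with intervals that overlap.

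Other promoter words were counted in the same windows on both strands. The Nrf1 word GCGCATGCG was in 4.78% of sites (3.05 to 7.09%) against 1.62% of coding TSSs, the palindrome CTCGCGAG in 2.08% against 1.01%, the CREB word TGACGTCA in 3.53% against 1.77%, the YY1 word AANATGGCG in 7.28% against 3.66%, and the E2F word TTCCCGCC in 5.20% against 2.74%. The YY1 share was 3.68% at sites of 20 reads or more and 3.08% at those of 5-fold or more, at or under that of coding TSSs. The ETS word CCGGAAG was in 16.8% against 10.2%, the E-box CACGTG in 9.98% against 6.6%, and the SP/KLF word GGGCGG in 66.5% against 44.5%. The IgG promoter stretches held Nrf1 in 4.04%, YY1 in 9.42%, ETS in 18.4%, SP/KLF in 59.0% and CREB in 1.57% (0.633 to 3.21%), an interval that overlaps that of the sites (2.07 to 5.60%), whereas AGGCCT was in 12.6% of them (9.63 to 16.0%). CTCGCGAG was in 2.47% of the IgG promoter stretches, the E2F word in 5.83% and the E-box in 10.3%, each slightly above its share of the sites. Promoter stretches at 1.5 to 3-fold held CREB in 5.81% and Nrf1 in 8.14%, with intervals that overlap those of the sites.

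Words of other promoter classes, and motif 1 of the study, were at or under the level of all coding TSSs. The NFY word CCAAT was in 23.9% of sites (20.2 to 28.0%) against 31.2%. The TATA box word TATAAA was in 1.66% (0.721 to 3.25%) against 8.80%. The octamer ATGCAAAT of Oct4 was in 0.208% (0.00526 to 1.15%) against 0.975%, and the ZNF143 word CCCAGNATG in 2.29% against 2.05%. Motif 1, which the study derived from its ChIP-seq data, is written here as a degenerate word in which AG recurs. It was in 20.4% of sites (16.9 to 24.3%) against 22.3%. Strong sites away from coding TSS windows held it in 34.1% (26.1 to 42.8%), an interval that does not overlap that of the sites. IgG promoter stretches had 24.9% for NFY, 2.91% for TATA and 0.673% for the octamer, and promoter sites of 9 to 14 reads had 32.5% for NFY. Nrf1, YY1, ETS and CREB words lay mostly in sites with the summit near the TSS, for example YY1 in 10.1% (6.5 to 14.8%) of those within 100 bp and 3.35% (1.24 to 7.15%) of those more than 100 bp after it. A match of letters is a description of the sequence and does not show that a factor was bound.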

How the data were processed

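Chromatin of E14 cells was precipitated with anti-ZNF322 antibody or rabbit IgG, with 1 library each, sequenced in lanes of the same run per the read names. Reads of 36 bp had been mapped to mm9 by the authors, who deposited their positions, strands and mapping quality scores; the submitters' processing notes name CASAVA 1.4, BWA and Partek 6.6. They also deposited the reads inside numbered regions of their peak detection, used here only as intervals.

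Pileups, joined stretches, TSS windows and words were computed in Python (3.11.15) using pysam 0.24.0, scipy 1.17.1, pandas 2.3.3 and numpy 2.4.6, drawn with matplotlib 3.10.9 and checked on simulated reads and sequences. Heights were not scaled. Shares carry exact Clopper-Pearson intervals at 95%, which cover counting error only; with 1 library per antibody no test was made. Named are the 25 highest sites, genes the study names or lists primers for, the 5 stretches just inside and outside each threshold and the highest site of each of 25 gene lists. A few genes that this rule names are not reported here. Sites and lists were chosen with earlier results of these data known, and the word AGGCC after all 8-base words had been counted. Alternatives were other scores, heights, folds, fragment lengths, scalings, TSS windows, TSS sets and sequence windows. Expression and qPCR experiments were not analysed here.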

Additional observations from a re-analysis of the deposited data

Results flagged for a closer look

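Reads of low mapping quality, which the sites leave out, were in total more numerous in the Zfp322a library than in the control at the same places. These places were chosen for more Zfp322a than IgG reads. Reads with a score of at least 25 numbered 13426 and 2732 there. Within 300 bp of the 481 summits there were 159 Zfp322a reads with a score under 25 and 37 IgG reads. A few sites held many of them. At *Tlk2*, a kinase gene with heights of 26 and 6 reads, there were 37 Zfp322a and 4 IgG reads of this kind. At *Pgk1* there were 35 and 2, and at *Hspa1b* 19 and 2. Of the 481 sites, 30 had any such Zfp322a read. More Zfp322a than IgG reads of this kind were found at 24 sites, and more IgG reads at 6. The cause was not tested.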

How the results depend on the processing

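With 1 library per antibody no result has a replicate check, and at this depth a site near the threshold rests on 15 fragments, so counts follow the settings closely. The number of sites, 481, became 943 at a height of 12 and 163 at 20 reads, 195 at 5-fold, 234 with reads extended to 200 bp and 2 with the libraries exchanged; the number of genes, 562, became 1077, 190, 230 and 266 under the first 4. The median distance from the TSS was 23 bp at a height of 12, 64 bp at 20 and 26 bp with TSSs of all annotated transcripts, where the share within 100 bp was 53.9% and that at head-to-head pairs 18.8%. The median GC content was 68.7% at a height of 20 reads, and the strand distance 122 bp with reads of 200 bp. The share with AGGCCT was 28.5% and 47.2% at heights of 12 and 20, 43.6% at 5-fold, 43.2% with reads of 200 bp, 15.8% in windows of 100 bp (3.44% at all coding TSSs) and 45.9% over whole sites. The mean number of AGGCC places was 2.17 and 3.35 at heights of 12 and 20, 2.33 and 2.95 at 2 and 5-fold, 2.99 with reads of 200 bp, 2.74 with IgG scaled by totals, 1.004 in 100 bp (0.287 at all coding TSSs) and 4.23 over whole sites. The YY1 share, 7.28% and above that of coding TSSs, was 3.68% at a height of 20, 3.08% at 5-fold, which is below it, and 4.70% with reads of 200 bp; the cause was not tested. Leaving out *Pgk1* or chromosome X, or scaling IgG by chromosome (the ratio of reads was 1.41 on X and 0.814 on chromosome 8), chosen after seeing the data, moved none of these beyond the limits used. No paired analysis was possible because each antibody had 1 library.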

Other observations

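The exchange of the libraries left 2 promoter stretches with more IgG reads. One, at *Pou5f1*, which encodes Oct4, had 49 IgG and 14 Zfp322a reads at chr17:35642431-35643216, and the other, at *Acsf3*, had 15 IgG and 3 Zfp322a reads at chr8:125299295-125299571. In the TSS windows of *Zfp322a* itself the heights were 8 Zfp322a and 3 IgG reads, of *Nanog* 3 and 4 and of *Sox2* 6 and 7. The share of coding genes with a site ran from 1.07% on chromosome X to 3.88% on chromosome 9, apart from Y with 0 of 17 genes.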
